A study of Sus scrofa with 8 samples.

Results

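The genes described here are 10 that T cells and natural killer (NK) cells express, CD3D, CD3E, CD3G, CD247, CD2, CD8A, CD4, NKG7, KLRK1 and PRF1. They were taken by symbol from a table of raw counts for 31014 genes, and all 10 were found on 1 row each. Heart tissue of wild-type miniature pigs was sequenced after vehicle (3 samples) or after doxorubicin (5 samples), an anthracycline used against cancer and known to injure the heart. Neither the dose and schedule nor the breed, age and sex are stated in the labels. Whether each sample is a different animal is also not stated, and p-values here cover the spread among these 8 samples, which may be technical.

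T cells recognise antigen through a receptor whose signal is carried into the cell by the CD3 chains and the zeta chain, and CD8 and CD4 act as co-receptors for the 2 classes of antigen-presenting molecule. NK cells and cytotoxic T cells kill by releasing granules that hold perforin and granzymes. In the healthy heart both kinds of cell are scarce among muscle, endothelium, fibroblasts and resident macrophages. In a piece of tissue, more cells of a type and more RNA of a gene per cell cannot be told apart.

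Libraries held 16105242 to 18267178 counts, of which the 10 genes together took 181 to 247 reads in vehicle and 562 to 1060 reads after doxorubicin. Doxorubicin 5 stood apart from its group, with a mean correlation with the other doxorubicin libraries of 0.912 against 0.941 to 0.956 for the others. Cardiomyocyte markers were abundant in every library, with 8 listed genes summing to 58600 to 65630 CPM (counts scaled to a common, TMM-adjusted library size) in vehicle and 34870 to 60930 CPM after doxorubicin. All 10 genes passed the filter on low counts. Of these, CD3D, CD3G, KLRK1 and PRF1 were below its minimum in at least 1 vehicle library and above it in all 5 doxorubicin libraries, so these 4 passed it through the doxorubicin libraries.

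After doxorubicin, 7 of the 10 genes rose, 0 fell and 3 did not pass the test, where 13.6% of all 14938 tested genes rose, 11.3% fell and 24.9% passed in either direction. The 7 were CD3D, CD3E and CD247 of the receptor complex, CD2 and CD8A at the cell surface, and NKG7 and KLRK1 of cytotoxic cells. CD3G, CD4 and PRF1 did not pass. All 10 had a positive log2 fold change, from 0.91 for CD247 to 1.94 for CD2, with a median of 1.62, while that of all tested genes was 0.02. In 7 of the 10 every doxorubicin library lay above every vehicle library, which held for 17.1% of tested genes, and CD247 rose although its groups touched. For lower calls edgeR, DESeq2 and limma each gave 0, and at an unadjusted p under 0.05 none of the 10 was lower either.

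The calls depended on single libraries. With vehicle 1 left out 0 of the 10 passed in edgeR, though 8 had an unadjusted p under 0.05, and only 2.16% of all genes then rose. With vehicle 3 left out NKG7 alone passed (2.19% of all genes rose), with vehicle 2 left out CD8A and NKG7 (7.14%), and with doxorubicin 2 left out CD3E, CD8A and NKG7 (9.84%). With doxorubicin 3 or doxorubicin 4 left out 5 passed, without CD3D and CD247 in either case (9.72% and 13.2% of all genes rose). The log2 fold change of each gene stayed positive in all 16 alternative fits. With libraries scaled by total count alone, 9 of the 10 passed where 27.4% of all genes rose, and 89.1% of all calls were higher, against 54.7% in the reported fit. The median of the 10 stood 1.60 above the median of all genes in both fits. A change of scaling moves all genes by nearly the same amount, so this equality was fixed in advance and is no test.

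**Figure D1:**
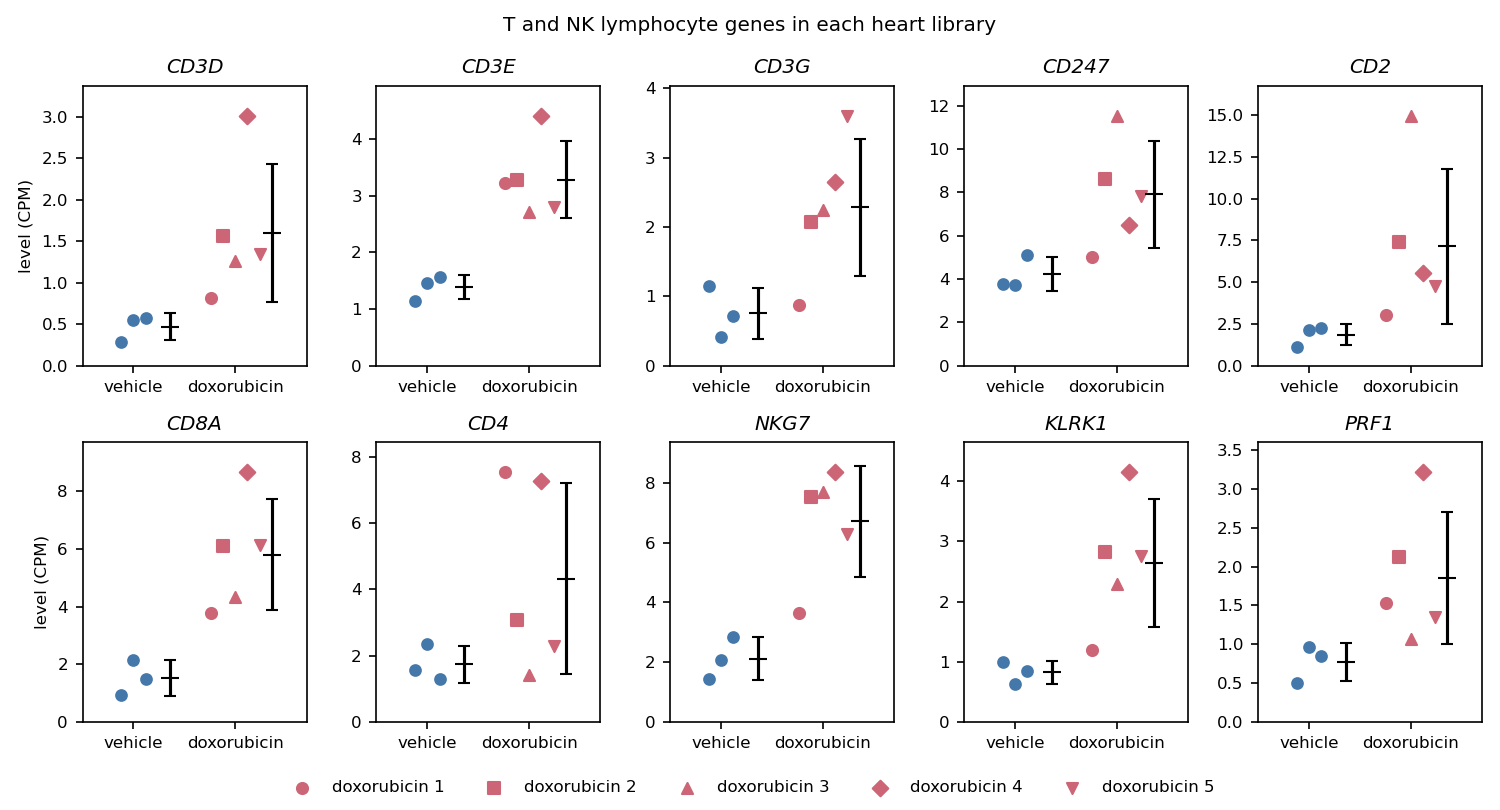
Level of each gene (y axis, CPM) in 3 vehicle and 5 doxorubicin libraries, each point 1 library, with bars for mean ± SD. CD3E lay at 1.14 to 1.56 CPM in vehicle and 2.71 to 4.41 CPM after doxorubicin, and CD4 and CD2 had the widest relative spread of the 10 after doxorubicin (66.7% and 64.9% of the mean).

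CD3E, CD3D and CD3G encode the epsilon, delta and gamma chains, which pair with each other and anchor the receptor. On the pig assembly Sscrofa11.1 they lie together on chromosome 9, within 37050 bases. CD3E (gene 397455) spans 45619730 to 45633972 on the plus strand, CD3D (396661) 45640475 to 45644153 on the minus strand and CD3G (494013) 45645243 to 45656779 on the plus strand. CD3D and CD3G point away from each other across a gap of 1089 bases. No listed gene of the table overlaps any of the 10, so none of their reads lies under a second annotated gene.

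CD3E was at 1.14, 1.46 and 1.56 CPM in vehicle 1 to 3 and at 3.22, 3.28, 2.71, 4.41 and 2.80 CPM in doxorubicin 1 to 5. The groups did not overlap, and the spread within each was small, with a coefficient of variation of 15.8% and 20.6%. CD3E rose 2.36-fold (log2 fold change 1.24, SE 0.31, adjusted p = 0.0199).

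CD3D had few reads, 4, 8 and 8 in vehicle and 15, 31, 27, 58 and 27 after doxorubicin. This corresponds to 0.286, 0.555 and 0.569 CPM against 0.819, 1.57, 1.26, 3.01 and 1.35 CPM. All doxorubicin libraries were above all vehicle libraries, doxorubicin 4 the highest. CD3D rose 3.37-fold (log2 1.75, SE 0.54, adjusted p = 0.0414). It was below the filter minimum in all 3 vehicle libraries, and without a filter on low counts it did not pass (0.0597).

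CD3G was at 1.14, 0.416 and 0.711 CPM in vehicle and at 0.873, 2.07, 2.24, 2.65 and 3.60 CPM after doxorubicin. Vehicle 1 lay above doxorubicin 1, both with 16 reads, so the groups overlapped. Its log2 fold change of 1.59 (SE 0.53) lay between those of its partner chains, with an adjusted p of 0.0536. It passed in DESeq2 (0.0158), in limma (0.00741), with libraries scaled by total count alone (0.0249) and with doxorubicin 1 left out (0.0227).

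CD247 encodes the zeta chain, which carries the receptor's signalling motifs and is also used by NK cell receptors. It lies on chromosome 4, 83494266 to 83586887. CD247 was at 3.79, 3.75 and 5.12 CPM in vehicle and at 5.02, 8.64, 11.5, 6.48 and 7.85 CPM after doxorubicin. Vehicle 3 and doxorubicin 1 were nearly level, and the other 4 doxorubicin libraries were above all vehicle libraries. Its log2 fold change was the smallest of the 10, at 0.91 (SE 0.29, adjusted p = 0.0484), and without a filter on low counts it did not pass (0.0608).

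CD2, an adhesion molecule of T and NK cells that binds CD58, lies on chromosome 4, 103963802 to 103976971. It was at 1.14, 2.15 and 2.28 CPM in vehicle and at 3.06, 7.38, 14.9, 5.55 and 4.75 CPM after doxorubicin. All doxorubicin libraries exceeded all vehicle libraries, and doxorubicin 3 (320 reads) reached 8.05 times the vehicle mean. CD2 rose 3.84-fold (log2 1.94, SE 0.53, adjusted p = 0.0279), with a log2 value of 1.48 with doxorubicin 3 left out (0.0385).

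CD8A, the alpha chain of the co-receptor of cytotoxic T cells, which some NK cells of pigs also carry, lies on chromosome 3, 57999228 to 58029768. It was at 0.929, 2.15 and 1.49 CPM in vehicle and at 3.77, 6.11, 4.34, 8.66 and 6.15 CPM after doxorubicin. The lowest doxorubicin library stood well above the highest vehicle library. CD8A had the smallest p of the 10 and rose 3.79-fold (log2 fold change 1.92, SE 0.39, adjusted p = 0.0113). CD8B, its partner chain, named here after its values were seen, had 1, 3 and 5 reads in vehicle and 9, 19, 20, 13 and 58 after doxorubicin. It passed at an adjusted p of 0.0472, with 2.46 (SE 0.79) as its log2 fold change, and was below the filter minimum in every vehicle library. The log2 value was 1.83 without doxorubicin 5 and 1.45 in limma. The call was lost without vehicle 1 (0.164), vehicle 2 (0.124), vehicle 3 (0.0928), doxorubicin 2 (0.0691) or doxorubicin 3 (0.0691), and without a filter on low counts (0.0556).

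CD4, the co-receptor of helper T cells, lies on chromosome 5, 63892129 to 63918547. It was at 1.57, 2.36 and 1.28 CPM in vehicle and at 7.53, 3.08, 1.40, 7.26 and 2.30 CPM after doxorubicin. Doxorubicin 1 and 4 were far above vehicle and doxorubicin 2 moderately so, while doxorubicin 3 and 5 lay within the vehicle range. Its log2 fold change was 1.31 (SE 0.59, adjusted p = 0.123), and of 16 alternatives limma alone passed it (0.0201).

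NKG7, a granule membrane protein of cytotoxic T and NK cells, lies on chromosome 6, 58496089 to 58497827. It was at 1.43, 2.08 and 2.84 CPM in vehicle and at 3.66, 7.53, 7.71, 8.35 and 6.30 CPM after doxorubicin. The groups were apart, and 4 of the doxorubicin libraries sat close together above doxorubicin 1. NKG7 rose 3.16-fold (log2 fold change 1.66, SE 0.35, adjusted p = 0.0123) and passed in 15 of 16 alternatives, all but the fit without vehicle 1 (0.0618).

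KLRK1 encodes NKG2D, an activating receptor that sees stress-induced ligands, and lies on chromosome 5, 61646691 to 61655386. It was at 1.0, 0.624 and 0.853 CPM in vehicle and at 1.20, 2.83, 2.29, 4.15 and 2.75 CPM after doxorubicin. Doxorubicin 1 was just above vehicle 1 and the other doxorubicin libraries were higher. KLRK1 rose 3.19-fold (log2 1.67, SE 0.45, adjusted p = 0.0271).

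PRF1, perforin, the pore-forming protein of cytotoxic granules, lies on chromosome 14, 73515306 to 73520256. It was at 0.50, 0.971 and 0.853 CPM in vehicle and at 1.53, 2.12, 1.07, 3.22 and 1.35 CPM after doxorubicin. The groups did not overlap, but doxorubicin 3 was close to vehicle 2. With a log2 fold change of 1.25 (SE 0.48) it did not pass (adjusted p = 0.0815), although DESeq2 (0.0469), limma (0.00789) and scaling by total count alone (0.0307) passed it.

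**Figure D2:**
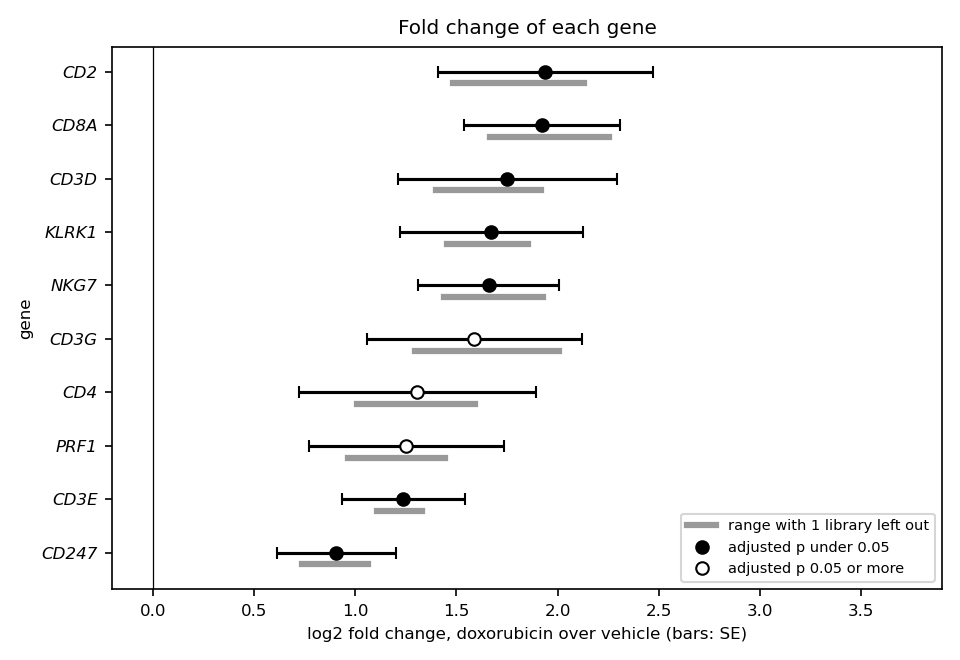
Log2 fold change of each gene, doxorubicin over vehicle (x axis; whiskers are SE), filled where the adjusted p is under 0.05; grey lines give the range when 1 library is left out. All values lie above 0, from 0.91 for CD247 to 1.94 for CD2.

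Levels between genes are given as CPM per kilobase of the gene length listed in the deposited table. In vehicle CD2 and NKG7 were the highest, at 1.81 ± 0.607 and 1.79 ± 0.597 CPM per kilobase (SD, n = 3). CD3E followed at 1.13 ± 0.178. PRF1 at 0.325 ± 0.103 and CD8A at 0.165 ± 0.0662 were the lowest, and CD8A has the longest listed length of the 10 (9234 bases). After doxorubicin CD2 and NKG7 still led, at 6.98 ± 4.53 and 5.66 ± 1.57 CPM per kilobase (SD, n = 5), and CD8A was still last at 0.629 ± 0.208. In both groups the libraries of each gene overlapped with those of the next in the order, so no pair of neighbours was separated by more than its spread.

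The doxorubicin libraries differed among themselves in which genes were high. Relative to the vehicle mean, the median fold of the 10 genes was 1.73 in doxorubicin 1, 3.04 in doxorubicin 2, 2.75 in doxorubicin 3, 4.05 in doxorubicin 4 and 2.72 in doxorubicin 5. Doxorubicin 4 had the highest level of 6 of the genes. Doxorubicin 1 had the lowest level of 7, yet the highest CD4, at 4.34 times the vehicle mean. Doxorubicin 3 had the highest CD2 and CD247 and the lowest CD3E, PRF1 and CD4 of the doxorubicin libraries, CD4 at 0.807 times the vehicle mean. Among the 10, CD4 departed most from the median profile of the genes, by 0.720 on the log2 scale averaged over the 8 libraries, and CD3D least, by 0.137.

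**Figure D3:**
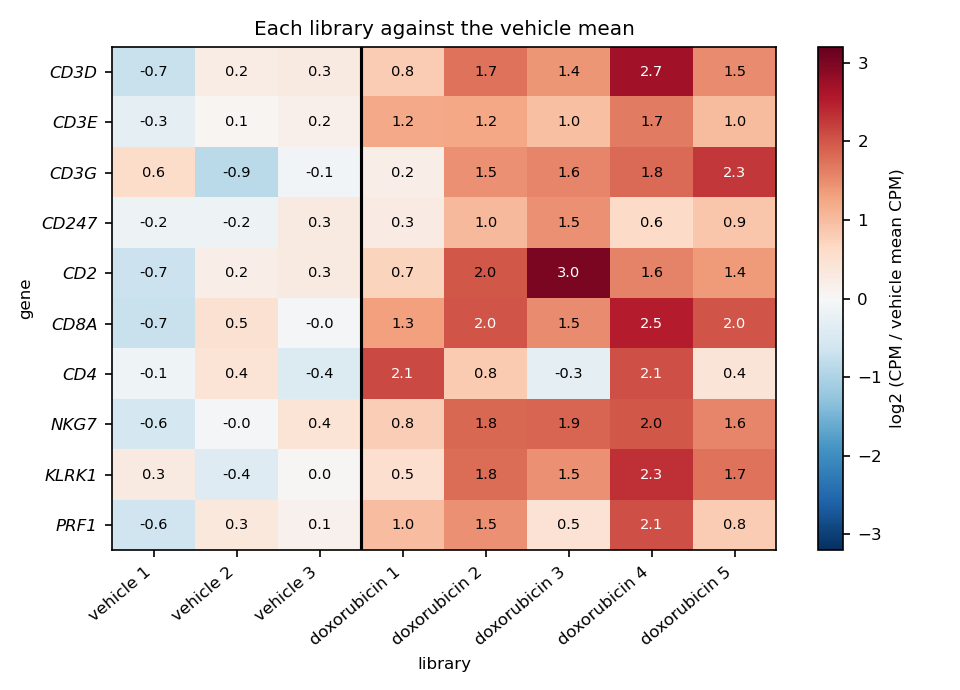
Log2 ratio of each library's CPM to the vehicle mean (colour and printed value) for the 10 genes (rows) in 8 libraries (columns). Doxorubicin 4 is high for most genes; CD4 is high in doxorubicin 1 and 4 and near the vehicle mean in doxorubicin 3 and 5.

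Ratios of reads within a library, which do not depend on how libraries are scaled, were compared for 3 pairs of genes. CD8A against CD4 had a log2 ratio of −0.74, −0.13 and 0.22 in vehicle and −0.99, 0.98, 1.62, 0.25 and 1.41 after doxorubicin. The groups overlapped, because doxorubicin 1 had the lowest ratio of all (difference 0.87, two-sided exact permutation p = 0.250, adjusted p = 0.375). CD3E against PTPRC, the CD45 antigen of all leukocytes, had −3.37, −3.14 and −3.58 in vehicle and −2.14, −2.76, −3.03, −2.51 and −2.86 after doxorubicin. Every doxorubicin library was above every vehicle library, with a difference of 0.70. Its exact permutation p of 0.0357 is the smallest this design allows, and adjusted over the 3 ratios it was 0.107. PRF1 against CD3E was at −0.85 ± 0.28 in vehicle and −0.90 ± 0.35 after doxorubicin (SD, n = 3 and n = 5), a difference of −0.05 (exact permutation p = 0.893, adjusted p = 0.893). The libraries do not show that PRF1 and CD3E moved by unequal or by equal amounts.

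**Figure D4:**
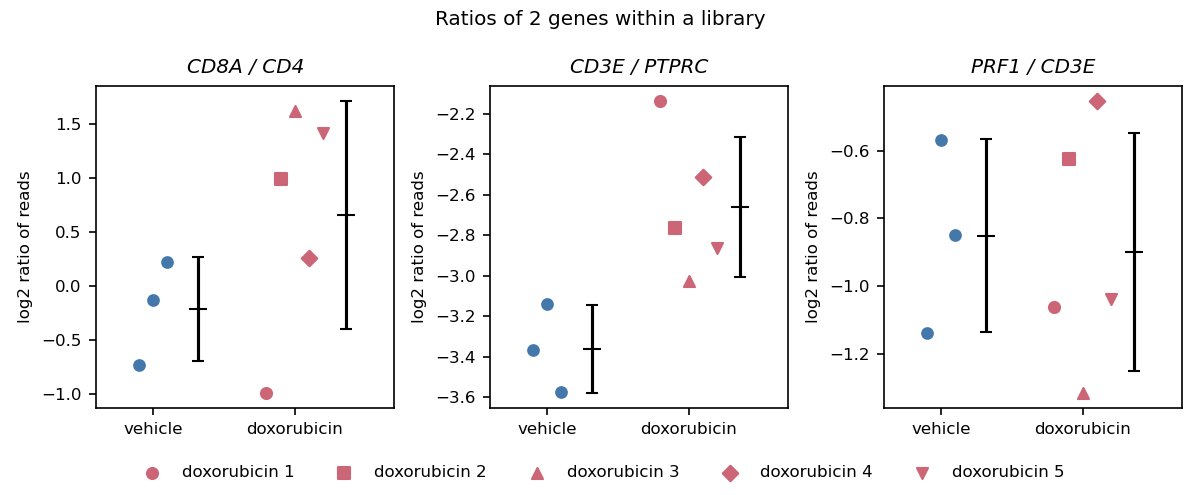
Log2 ratio of reads of 2 genes within each library (y axis; points are libraries, bars mean ± SD) for CD8A over CD4, CD3E over PTPRC and PRF1 over CD3E. CD3E over PTPRC is higher in all 5 doxorubicin libraries than in the 3 vehicle libraries, whereas the other ratios overlap.

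Other genes that carry or tune the T cell receptor signal rose in part. Of 40 listed, 38 were found on 1 row, 30 were tested, 9 rose, 1 fell and 20 did not pass, with a median log2 fold change of 1.25 (0.02 over every gene tested, of which 13.6% rose and 11.3% fell). Of the 9 that rose, SH2D2A, CD8B and UBASH3A were below the filter minimum in every vehicle library, as were HCST, RUNX3 and IL21R among the lists that follow, so these entered the test only through the doxorubicin libraries (UBASH3A and IL21R are named after their values were seen). PTPRCAP, a partner of CD45, went from 1.27 ± 0.488 to 6.27 ± 2.11 CPM (adjusted p = 0.00852). PTPN6, the phosphatase SHP-1, which damps receptor signals and is found in all blood lineages, went from 6.92 ± 0.471 to 15.3 ± 4.50 CPM (adjusted p = 0.0164). CD5 and CD6, inhibitory surface receptors of T cells, rose by log2 fold changes of 1.47 (SE 0.44) and 2.11 (SE 0.59). Of 16 alternatives, CD5 passed in 8 and CD6 in 11. SH2D2A, a T cell adaptor, had 0, 0 and 3 reads in vehicle and 8 to 22 after doxorubicin (adjusted p = 0.0268), and the call was lost without vehicle 1 (0.105) or vehicle 2 (0.0848). MALT1, a protease of the pathway to NF-kappaB, fell from 37.7 ± 4.01 to 22.3 ± 5.1 CPM (adjusted p = 0.0268), a call that was lost with libraries scaled by total count alone (0.140), and with vehicle 1 (0.114), vehicle 2 (0.0602), vehicle 3 (0.0810) or doxorubicin 3 (0.0567) left out. LCK, the kinase bound to CD4 and CD8, named after its values were seen, did not pass (log2 fold change 1.39, SE 0.48, adjusted p = 0.0591). With vehicle 1, vehicle 2 or vehicle 3 left out, 1, 2 and 2 of the list rose (2.16%, 7.14% and 2.19% of all genes), and with doxorubicin 2, 3 or 4 left out 3, 4 and 5 (9.84%, 9.72% and 13.2%). Without a filter on low counts 5 rose (7.02%).

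Of 35 listed NK receptor and granule genes, 32 were found on 1 row, 20 were tested, 5 rose, 1 fell and 14 did not pass, with a median of 0.81. Over all tested genes 13.6% rose and 11.3% fell. GZMH, a granzyme, went from 16, 14 and 17 reads in vehicle to 54, 90, 79, 105 and 92 reads (1.11 ± 0.123 to 4.25 ± 0.956 CPM, adjusted p = 0.00674). The granzymes GZMB, GZMM and GZMK, named after their values were seen, did not pass. Their log2 fold changes were 0.18, 0.19 and 0.58 (adjusted p = 0.891, 0.883 and 0.364). CCL5, a chemokine of activated T and NK cells, went from 2.04 ± 0.763 to 16.3 ± 8.31 CPM (adjusted p = 0.00922). HCST, the DAP10 adaptor through which NKG2D signals, had 0, 4 and 0 reads in vehicle and 18, 35, 27, 41 and 60 after doxorubicin (adjusted p = 0.0136), and the call was lost without vehicle 1 (0.0626) or vehicle 3 (0.0620). TYROBP, the DAP12 adaptor, which macrophages also use, went from 5.53 ± 1.61 to 20.5 ± 11 CPM (adjusted p = 0.0200), and STXBP2, needed for granule release, rose by 1.7 (SE 0.48). TNFSF10, the death ligand TRAIL, fell from 113 ± 7.69 to 69.3 ± 11.9 CPM (adjusted p = 0.0169), a call lost with libraries scaled by total count alone (0.129) and with vehicle 1 (0.0710) or vehicle 3 (0.0781) left out. Receptors that mark NK cells more narrowly were barely read. NCR1 had 0 to 5 reads in vehicle and 2 to 16 after doxorubicin, KLRF1 2 to 3 and 4 to 9, KLRD1 0 to 2 and 0 to 7, and none of the 3 passed the filter. The 3 cytotoxic genes NKG7, KLRK1 and PRF1 are shared by T and NK cells, so the reads do not assign them to either. With vehicle 1, 2 or 3 left out 1, 3 and 1 of the list rose (2.16%, 7.14% and 2.19% of all genes), and with doxorubicin 1 left out 8 (14.6%).

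Among lymphocyte transcription factors 21 of 26 were tested, 6 rose, 0 fell and 15 did not pass (median 0.78). Over all tested genes 13.6% rose and 11.3% fell. At an unadjusted p under 0.05 edgeR had 1 lower, DESeq2 gave 0 lower after adjustment, and limma gave 1. RUNX3, which directs the CD8 lineage, had 7, 3 and 3 reads in vehicle and 32, 84, 57, 71 and 57 after doxorubicin (log2 fold change 3.28, SE 0.49, adjusted p = 0.00596). TBX21 (T-bet), a factor of cytotoxic and type 1 helper cells, went from 0.731 ± 0.476 to 2.80 ± 1.66 CPM (adjusted p = 0.0410). Its log2 fold change was 1.92, and 2.59 without vehicle 3 (0.0607), and the call was also lost without vehicle 1 (0.151), vehicle 2 (0.129), doxorubicin 2 (0.0737) or doxorubicin 4 (0.0641). ZNF683 (Hobit), a factor of tissue-resident T cells, and IKZF1 (Ikaros), expressed across lymphocytes, rose by 1.89 (SE 0.57) and 1.42 (SE 0.31). Of 16 alternatives, ZNF683 passed in 9 and IKZF1 in 14. NFATC1, which responds to calcium and is also expressed outside lymphocytes, rose by 0.67 (SE 0.21, adjusted p = 0.0475). It passed in 8 of 16 alternatives, and in only 1 of the 8 with a library left out. RUNX1, a factor of many blood lineages, was called at 2.48 (SE 0.79, adjusted p = 0.0459), and at 1.82 with doxorubicin 5 left out (0.0562). That call was lost without any 1 vehicle library (0.125 to 0.134), without doxorubicin 2 (0.0565) or 3 (0.0790), and without a filter on low counts (0.123). With vehicle 1, 2 or 3 left out 1, 2 and 1 of the list rose (2.16%, 7.14% and 2.19% of all genes). With doxorubicin 2, 3 or 4 left out 2, 3 and 3 rose (9.84%, 9.72% and 13.2%). Without a filter on low counts 4 rose (7.02%).

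Cytokine and homing receptors had 9 higher, 0 lower and 14 not passing of 23 tested from 31 listed (median 1.15). Over all tested genes 13.6% were higher and 11.3% lower. At an unadjusted p under 0.05 edgeR also had 0 lower, DESeq2 gave 0 lower and limma 2. IL2RB, a chain of the receptors for interleukins 2 and 15, was at 79, 77 and 66 reads in vehicle and 292, 430, 503, 523 and 214 after doxorubicin. It rose by 1.92 (SE 0.30, adjusted p = 0.00637). S1PR5, an exit receptor of NK cells, went from 6.17 ± 1.24 to 14.1 ± 2.67 CPM (adjusted p = 0.00952). SELPLG, the ligand of selectins, CD44, a hyaluronan receptor, and ITGB2, the beta chain of leukocyte integrins, rose by 2.55 (SE 0.46), 2.26 (SE 0.43) and 1.21 (SE 0.26). Myeloid cells carry these 3 as well. With vehicle 1 or 3 left out 2 and 3 of the list rose (2.16% and 2.19% of all genes), and with vehicle 2 left out 6 (7.14%).

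Of 32 listed ligands of these receptors and chemokines that draw T cells, 24 were tested, 3 rose (12.5%, with 13.6% over all genes), 2 fell (11.3% of all genes did) and 19 did not pass, with a median of 0.21. These shares are near the background and are no result about the list. SLA-1, a class I antigen-presenting molecule that CD8 binds, went from 188 ± 38.1 to 389 ± 136 CPM (adjusted p = 0.0299), but near-identical SLA genes can share its reads. ICOSLG, a co-stimulatory ligand, went from 12.2 ± 2.58 to 23.3 ± 4.81 CPM (adjusted p = 0.0167), and CX3CL1, a membrane chemokine, from 24.5 ± 2.27 to 42.7 ± 11.8 CPM (adjusted p = 0.0383). CXCL10, a chemokine for activated T cells, fell from 83.3 ± 12.9 to 34.0 ± 12 CPM (adjusted p = 0.0158). CCL19, which guides T cells in lymphoid tissue, fell from 6.74 ± 0.914 to 1.64 ± 0.813 CPM (adjusted p = 0.0117). CXCL16, the ligand of CXCR6, did not pass (log2 fold change 1.76, SE 0.58, adjusted p = 0.0510), and it passed in 8 of 16 alternatives, with a log2 value of 0.83 in limma. With vehicle 1, 2 or 3 left out 0 of the list rose in each fit (2.16%, 7.14% and 2.19% of all genes), and 0, 1 and 0 fell. With doxorubicin 2 or 3 left out 1 rose in each fit (9.84% and 9.72% of all genes), and with doxorubicin 4 left out 5 (13.2%).

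Markers of other leukocytes moved with doxorubicin too. Of 10 pan-leukocyte genes 6 rose and 1 fell (13.6% and 11.3% of all genes did), and their summed level was 181 to 223 CPM in vehicle and 203 to 397 CPM after doxorubicin. PTPRC itself went from 14.8 ± 3.74 to 21 ± 4.13 CPM and did not pass (log2 fold change 0.51, SE 0.23, adjusted p = 0.121). With vehicle 1, 2 or 3 left out 2, 4 and 3 of the pan-leukocyte genes rose (2.16%, 7.14% and 2.19% of all genes) and 0 fell. PTPRC passed without doxorubicin 1 (0.0492) and with libraries scaled by total count alone (0.0248). Of 16 macrophage and monocyte markers 15 were tested and 8 rose, and the list summed to 174 to 233 CPM in vehicle and 284 to 893 CPM after doxorubicin, without overlap. With vehicle 1, 2 or 3 left out 0, 5 and 1 of these rose (2.16%, 7.14% and 2.19% of all genes), and DESeq2 called 12 higher (18.9%). CD163, a scavenger receptor of resident macrophages, was at 24.4 ± 4.37 and 32.5 ± 11.9 CPM and did not pass (adjusted p = 0.333).

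B cell markers had few reads. MS4A1 (CD20) had 2 to 6 reads in vehicle and 1 to 10 after doxorubicin, and CD79A, a chain of the B cell receptor complex named after its values were seen, had 2, 1 and 4 in vehicle and 6, 8, 50, 10 and 21 after doxorubicin. Of 9 genes found 4 were tested, all with a positive log2 fold change (median 1.07). In edgeR and in DESeq2 0 of these passed (2 and 3 were higher at an unadjusted p under 0.05), while limma called 2 higher. Over all tested genes 13.6% rose in edgeR, 18.9% in DESeq2 and 27.0% in limma. The B cell list summed to 9.02 to 10.5 CPM in vehicle and 10.5 to 27.7 CPM after doxorubicin. The plasma cell list summed to 12.4 to 14.3 CPM and 6.38 to 160 CPM, the highest in doxorubicin 3. Of its 4 tested genes 1 rose (13.6% of all tested genes did), SDC1, named after its values were seen. SDC1 went from 0.26 ± 0.39 to 10.1 ± 12.9 CPM (log2 fold change 5.24, SE 1.41, adjusted p = 0.0278). It reached the filter minimum in only 1 vehicle library. JCHAIN, which joins antibody chains, averaged 11.2 ± 0.967 CPM with vehicle and 35.3 ± 56.1 CPM with doxorubicin and did not pass (adjusted p = 0.286). Its log2 fold change of 1.66 became −0.10 with doxorubicin 3 left out. Of 8 proliferation genes 4 rose and 0 fell (13.6% and 11.3% of all tested genes did). They summed to 29.7 to 37.3 CPM in vehicle and 44.5 to 110 CPM after doxorubicin. The part of these other cell types in the changes of the 10 genes was not tested.

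**Figure D5:**
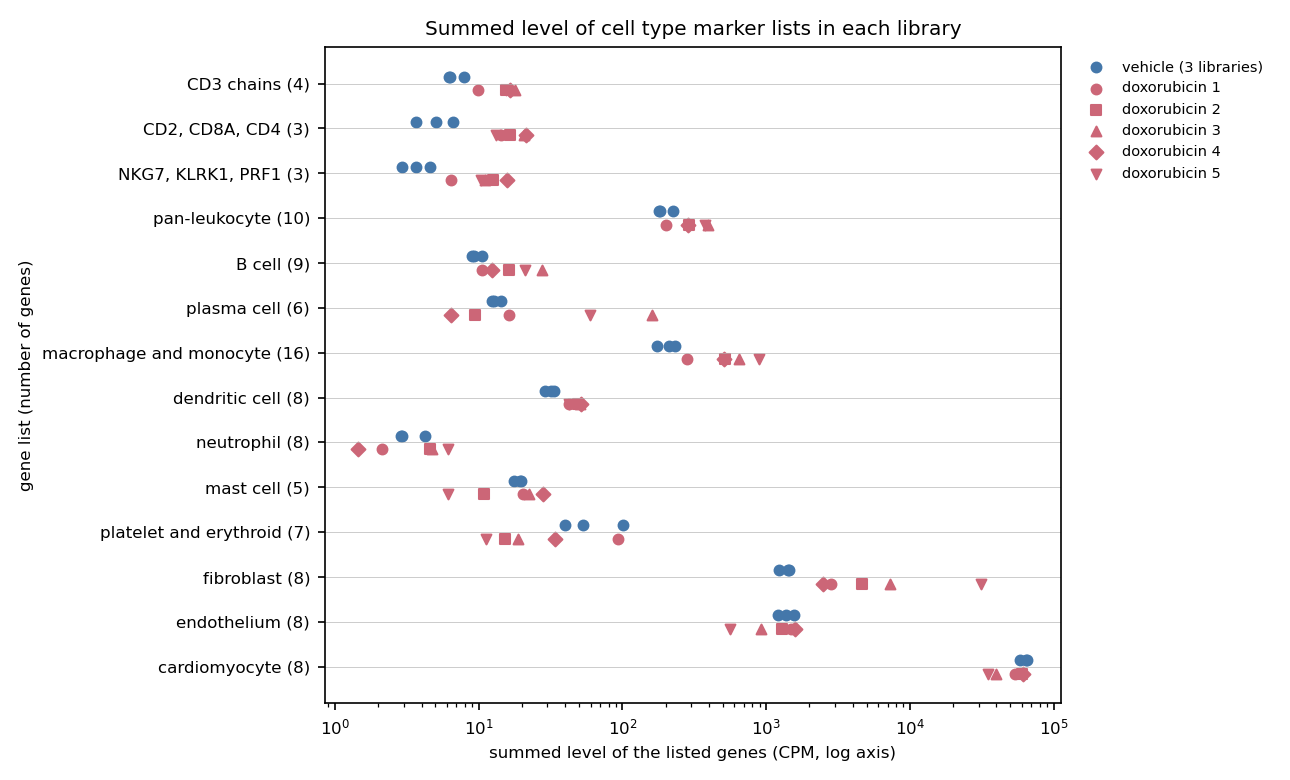
Summed CPM (x axis, log scale) of the 10 genes in 3 groups and of marker lists of other cell types, 1 point per library. The CD3 and zeta chains summed to 6.17 to 7.96 CPM in vehicle and 9.93 to 17.8 CPM after doxorubicin. The macrophage, dendritic cell and fibroblast lists likewise did not overlap between groups, but their genes did not all move alike. Of 7 tested dendritic cell genes 2 rose and 5 did not pass, with log2 fold changes of −0.99 for XCR1 and −1.28 for CLEC9A. Of 8 fibroblast genes 4 rose, 1 fell (PDGFRA, −1.13) and 3 did not pass. Over all tested genes 13.6% rose and 11.3% fell.

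The 5 genes whose library-by-library change was nearest to the median of the 10, by mean absolute difference in log2 CPM over 8 libraries, were FMNL1, RAC2, UHRF1, SPN and SYTL3. The differences were 0.116, 0.137, 0.153, 0.165 and 0.167. FMNL1, a formin of the leukocyte cytoskeleton, had 76, 107 and 110 reads in vehicle and 243, 385, 408, 405 and 303 after doxorubicin. SPN (CD43), a sialoglycoprotein of leukocytes, had 27, 32 and 26 reads in vehicle and 61, 134, 132, 181 and 111 after doxorubicin. RAC2 is a small GTPase of blood cells, UHRF1 maintains DNA methylation in dividing cells, and SYTL3 takes part in vesicle traffic. In all 5 doxorubicin 1 was the lowest doxorubicin library by reads. These genes were chosen for their likeness to the 10, so their change carries no test.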

How the data were processed

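Raw counts per gene were deposited by the authors, 1 column per sample, matched to samples by title. Per the labels' protocols, RNA came from an RNeasy kit and libraries from a SMARTER mRNA kit. No aligner, counter or strand setting is given in the sources used here. Identifiers of 30335 of 31014 genes matched RefSeq's table for Sscrofa11.1, and the coordinates of all 10 genes were identical there.

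The whole table was fitted in R 4.3.3 with edgeR 4.0.16, using filterByExpr (minimum count 10, minimum total 15), TMM scaling and robust quasi-likelihood tests of a treatment-only design. P-values were two-sided and adjusted by Benjamini-Hochberg over 14938 genes, with 0.05 as the threshold. The fit was tested on simulated counts. CPM are mean ± SD over 3 vehicle and 5 doxorubicin libraries, and SE are on the log2 scale. Log2 ratios of reads (pseudocount 0.5) were compared by exact permutation over 56 splits. Fold changes are given as log2 values computed from the deposited counts.

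All 10 genes were named, with up to 6 genes of smallest p from each companion list, PTPRC, CD163, MS4A1 and JCHAIN in any case, and the 5 nearest profiles (log2 CPM with prior count 2). Some genes that this rule names are not reported here. The 10 genes and the lists were chosen with earlier results of these data known. List symbols on no row or on several rows were left out. Alternatives were RLE factors, total count only, no low-count filter, and a filter of CPM over 1 in 3 or more libraries. Another was TMM computed after removing mitochondrial genes, haemoglobin genes and the 20 most abundant of all genes. The rest were DESeq2 1.42.0, quality-weighted voom in limma 3.58.1, the replicate number as a block, pseudocounts of 1 and 0.1, and leaving out each library. Figures were drawn with matplotlib 3.10.9.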

Additional observations from a re-analysis of the deposited data

Results flagged for a closer look

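Of 72 named genes, read ratios and list sums checked in the 5 doxorubicin libraries, 6 held a library far from the others by a Dixon test at its 95% critical value, where chance gives about 1 in 20. JCHAIN was at 135 CPM in doxorubicin 3, against 4.25 to 20.4 CPM in the other doxorubicin libraries. UHRF1 was at 5.60 CPM in doxorubicin 4, against 2.67 to 3.23 CPM. CD8B was at 2.9 CPM in doxorubicin 5, against 0.491 to 0.960 CPM. The summed level of T cell receptor signalling and co-stimulation genes was 120 CPM in doxorubicin 1, below 151 to 163 CPM in the others and within the vehicle range of 113 to 121 CPM. Platelet and erythroid markers summed to 92.4 CPM in doxorubicin 1, within the vehicle range of 40.1 to 100 CPM, against 11.3 to 34.2 CPM in the other doxorubicin libraries. Fibroblast markers summed to 31370 CPM in doxorubicin 5, against 2472 to 7240 CPM.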

How the results depend on the processing

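With 1 library left out in turn, higher calls ran from 334 to 2472 genes and lower calls from 315 to 2265, and 0 to 8 of the 10 lymphocyte genes rose. In the same fits 1 to 10 of the signalling list rose and 0 to 1 fell, 1 to 8 of the NK and granule list rose and 0 to 1 fell, 1 to 7 of the transcription factors rose and 0 to 1 fell, 2 to 10 of the cytokine and homing receptors rose, and 0 to 5 of the ligands rose and 0 to 2 fell. Total count only gave 4093 higher and 499 lower calls, 10 higher and 0 lower in the NK and granule list, 0 lower in the signalling list and 5 higher ligands. Limma gave 4030 higher and 4021 lower calls, 16 higher signalling genes, 8 higher and 2 lower NK and granule genes, 1 lower transcription factor, 2 lower receptors and 5 higher ligands. DESeq2 gave 6 higher ligands, and no filter gave 5 higher signalling genes. Of all genes, 27.4% rose with total count only, 27.0% in limma, 18.9% in DESeq2 and 7.02% with no filter. The replicate number as a block gave 4 of the 10 genes (CD247, CD2, CD8A and NKG7), 3 higher signalling genes and 6 higher ligands (13.6% of all genes rose). In that fit doxorubicin 4 and 5 have no partner and do not inform the contrast. Deviations of same-numbered libraries from their group means correlated at −0.0031 to 0.0425. Of 3 vehicle libraries, 0 correlated best with the doxorubicin library of its own number. With only 3 such pairs this check cannot exclude a pairing by number. The difference in the PRF1 to CD3E ratio turned to 0.0942 without vehicle 2 and 0.057 without doxorubicin 3 and ranged from −0.19 to 0.0942 over single libraries left out. The log2 fold change of JCHAIN turned to −0.57 in limma and −0.0959 without doxorubicin 3, and reached 1.95 without doxorubicin 4. CCL5 moved from 2.99 to 2.36 under the block, and RUNX1 from 2.48 to 1.34 in limma. The cause of these changes was not tested. Of 35 other named genes that passed, PTPRCAP, GZMH, RUNX3, IL2RB and FMNL1 passed in all 16 alternatives, RUNX3 with every vehicle library below the filter minimum. With 4 to 8 reads of CD3D per vehicle library, counting error limits its fold change.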

Other observations

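Several lymphocyte genes were too low to be tested and are given here as reads, chosen after their values were seen. KLRG1, an inhibitory receptor of differentiated cytotoxic T and NK cells, had 1, 2 and 2 reads in vehicle and 7, 29, 9, 27 and 10 after doxorubicin. BCL11B, a factor that fixes T cell identity, had 0 reads in all 3 vehicle libraries and 5, 11, 6, 15 and 0 after doxorubicin. CXCR3, the receptor of CXCL10, had 0, 0 and 5 reads in vehicle and 7, 10, 10, 14 and 12 after doxorubicin, while CXCL10 itself fell. FOXP3, the factor of regulatory T cells, had 0, 3 and 3 reads in vehicle and 7, 4, 7, 0 and 0 after doxorubicin. CD69, an early activation antigen, had 2, 9 and 10 reads in vehicle and 0, 3, 8, 2 and 4 after doxorubicin. IFNG had 0 to 1 reads in vehicle and 0 to 9 after doxorubicin, the 9 in doxorubicin 4.

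Doxorubicin 3 held 320 reads of CD2 against 58 of CD3E, the largest such gap of the 8 libraries, and also 62 reads of POU2AF1 and 50 of CD79A, both B lineage genes. These had 0 to 24 and 6 to 21 reads in the other doxorubicin libraries.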
